A study of Mus musculus with 4 samples.

Results

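The tRNA-His family (His in the deposited tables) was followed in small RNA of mouse bone marrow, from the first to the last position of its coverage table. It was chosen by name, as 1 of 23 tRNA families with tables in the series, and its 71 positions are part of 1698 positions in all. The libraries compared were Dnmt2-/- libraries from mice that lack the RNA methyltransferase Dnmt2, and WT libraries from wild-type mice. All were made from total RNA of bone marrow of C57BL/6 mice at postnatal day 8, with 2 libraries of each genotype, numbered 1 and 2. Whether libraries of 1 genotype come from separate animals is not stated in the labels, and the p-values below therefore speak only of the spread among these 4 libraries, some or all of which may be technical. The tables used here hold tRNA coverage alone, so neither the tissue nor the loss of Dnmt2 could be checked against marker genes or the targeted transcript. RefSeq (GRCm38.p6) lists 11 mouse tRNA-His genes by name among 430 tRNA genes, 10 with the anticodon GTG and 1 with ATG, and the labels do not say how reads were shared between them.

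tRNA-His decodes histidine codons and carries a guanosine at its 5′ end that is not encoded in the gene and is added after transcription by a dedicated enzyme. It is also 1 of 4 tRNAs, with tRNA-Asp, tRNA-Asn and tRNA-Tyr, in which the first anticodon base, position 34 of the standard numbering, is replaced by queuosine. Dnmt2 methylates cytosine 38 of tRNA-Asp, tRNA-Gly-GCC and tRNA-Val-AAC, and tRNA-His is not among these known substrates. The anticodon loop is the place where ribonucleases such as angiogenin cut tRNAs into 5′ and 3′ fragments. Coverage along the family shows where such fragments begin and stop, although it cannot tie the start of a single fragment to its end.

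Values are coverage in the units of the deposited tables, which carry 1 unexplained constant per library. Every value was a whole multiple of 1 step per library, read here as the worth of 1 read, so read numbers could be recovered. This step was 1.31e-05 and 2.80e-05 units in Dnmt2-/- libraries 1 and 2, against 6.57e-06 and 1.35e-05 units in WT libraries 1 and 2. It was thus larger in the Dnmt2-/- library of each number. The peak reads of the 23 families together ranged from 220277 to 267920 in the Dnmt2-/- libraries and from 337091 to 423186 in the WT libraries. Shares within the family do not depend on the constant, whereas levels set between libraries do. Summed coverage over all families was higher in the Dnmt2-/- library of both numbers, by 1.25-fold in number 1 and 1.33-fold in number 2. Bulk marrow was sequenced, so fewer cells of a type and less RNA per cell cannot be told apart. Positions are counted from 1 at the first row. How they relate to the standard numbering is not stated, and the windows of 1 to 31 (before the anticodon loop), 32 to 38 (loop) and 39 to 71 (3′ side) are placed on that count.

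In all 4 libraries tRNA-His was seen almost wholly as a 5′ fragment. Positions 1 to 31 held 97.7% and 94.5% of the family's coverage in the Dnmt2-/- libraries, against 97.9% and 93.6% in the WT libraries. The loop positions held 2.02% and 5.04% in the Dnmt2-/- libraries, against 1.68% and 5.48% in the WT libraries. The 2 genotypes overlapped in both shares, and the libraries numbered 2 had the lower share before the loop in either genotype. Coverage was highest at position 24 in every library, level with position 25 in WT library 1. The peak held 12066 and 11994 reads in the Dnmt2-/- libraries and 14433 and 7823 reads in the WT libraries. Shares of these peak reads are used below for starts and ends.

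**Figure D1:**
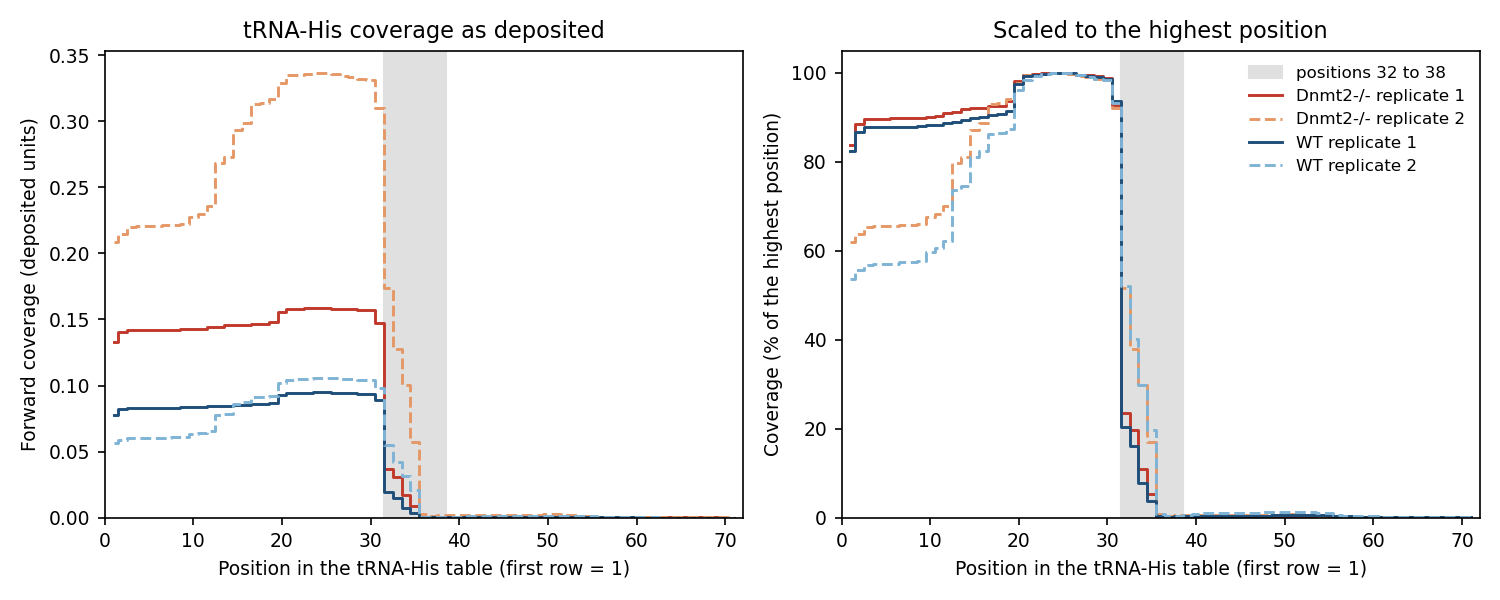
Forward coverage along the 71 positions of tRNA-His in the deposited units (left) and as a percentage of the highest position of the same library (right), 1 line per library, with positions 32 to 38 shaded. All 4 lines peak at position 24, in WT library 1 level with position 25, and fall steeply after position 31. On the right, the dashed lines (libraries numbered 2) lie below the solid lines (libraries numbered 1) up to position 16. They lie above the solid lines within the loop. On the left, Dnmt2-/- library 2 lies above Dnmt2-/- library 1 already at position 1 (0.208 against 0.133).

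Most fragments began at the first row. Coverage at position 1 was 83.9% and 61.9% of peak reads in the Dnmt2-/- libraries, against 82.4% and 53.6% in the WT libraries. A further 5.89% and 3.39% in the Dnmt2-/- libraries and 5.42% and 3.18% in the WT libraries began at positions 2 and 3, mainly at position 2. Whether the first row stands for the added guanosine or for the first encoded base cannot be read from the tables. Coverage only rose or stayed level between the first row and the peak in all 4 libraries. Net starts are starts minus ends, so they are lower bounds where some reads ended before the peak.

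Starts inside the fragment separated the replicate numbers more than the genotypes. Net starts at positions 13 to 17 made up 1.45% and 22.9% of peak reads in Dnmt2-/- libraries 1 and 2, against 1.74% and 24.04% in WT libraries 1 and 2. The largest single step in this stretch was at position 13, with 9.75% in Dnmt2-/- library 2 and 11.5% in WT library 2. Position 15 followed with 6.20% in Dnmt2-/- library 2 and 6.54% in WT library 2. Starts in this stretch were thus frequent in both libraries numbered 2 and rare in both numbered 1. A second set of starts at positions 18 to 24 was present in all 4 libraries, at 7.53% and 7.07% in the Dnmt2-/- libraries and 9.40% and 13.8% in the WT libraries. Both Dnmt2-/- values lay below both WT values there, while the genotypes overlapped at position 1, at positions 2 and 3 and at positions 13 to 17. This difference was not tested, and a 2 against 2 permutation cannot go below p = 0.333. The main step of this second set was at position 20, with 4.42% and 3.62% in the Dnmt2-/- libraries and 6.14% and 8.74% in the WT libraries.

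The most frequent end in all 4 libraries was position 31, the last before the loop window. Position 27 was still covered by 99.6% and 99.3% of peak reads in the Dnmt2-/- libraries and by 99.6% and 99.5% in the WT libraries. Net ends at position 31 made up 69.3% (exact 95% binomial interval 68.4 to 70.1) and 40.5% (39.6 to 41.4) of peak reads in Dnmt2-/- libraries 1 and 2. In WT libraries 1 and 2 they made up 73.4% (72.7 to 74.1) and 41.1% (40.03 to 42.2). Such intervals cover counting error within 1 library only, and they treat net ends, which are ends minus starts, as a simple count. The reads carry no molecular identifiers, so copies of 1 molecule cannot be told apart and the intervals may be too narrow. Position 30 added 6.18% and 6.20% in the Dnmt2-/- libraries and 4.98% and 5.19% in the WT libraries, so that both Dnmt2-/- values lay above both WT values at this smaller end. That difference was not tested, and the genotypes overlapped at each end from position 31 to 35.

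Ends inside the loop were the other main group. Net ends at positions 32 to 35 made up 23.2% and 50.7% of peak reads in the Dnmt2-/- libraries and 19.9% and 51.2% in the WT libraries, more than those at position 31 in both libraries numbered 2. Reads that reached position 32, the first of the loop window, were 23.5% and 51.6% of peak reads in the Dnmt2-/- libraries and 20.3% and 52.1% in the WT libraries. The share was thus higher in the Dnmt2-/- library of number 1 and lower in that of number 2, and the 2 numbers differed far more than the 2 genotypes. Reads that reached position 34, which is the queuosine position if the first row is position 1 of the standard numbering, were 10.9% and 29.9% in the Dnmt2-/- libraries and 7.84% and 29.8% in the WT libraries.

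Ends within the loop were spread over 4 positions. Position 32 held 3.83% and 13.7% of peak reads as net ends in the Dnmt2-/- libraries, against 4.27% and 11.98% in the WT libraries. Position 33 was the most even between libraries, with 8.72% and 8.07% in the Dnmt2-/- libraries and 8.21% and 10.4% in the WT libraries. Position 34 held 5.54% and 12.9% in the Dnmt2-/- libraries and 3.998% and 10.03% in the WT libraries. At this position the Dnmt2-/- library was the higher in each number, although the genotypes overlapped. Position 35 held 5.12% and 16.1% in the Dnmt2-/- libraries and 3.42% and 18.8% in the WT libraries, and was the second end of the libraries numbered 2.

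Coverage of the 5′ fragments stopped almost wholly after position 35. The read length is not stated in the labels, so an end of the fragments and an end of the reads cannot be told apart there. Reads over position 36 fell to 0.290% and 0.884% of peak reads in the Dnmt2-/- libraries and to 0.423% and 0.908% in the WT libraries. Position 38 matches the cytosine that Dnmt2 methylates in its substrates if the first row is position 1 of the standard numbering. Reads over it came to 0.215% and 0.525% of peak reads in the Dnmt2-/- libraries and 0.339% and 0.422% in the WT libraries. Coverage rose from position 37 to position 38 in every library, so some of these reads began at position 38. Nearly all tRNA-His coverage that began on the 5′ side therefore stopped before this position in both genotypes.

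**Figure D2:**
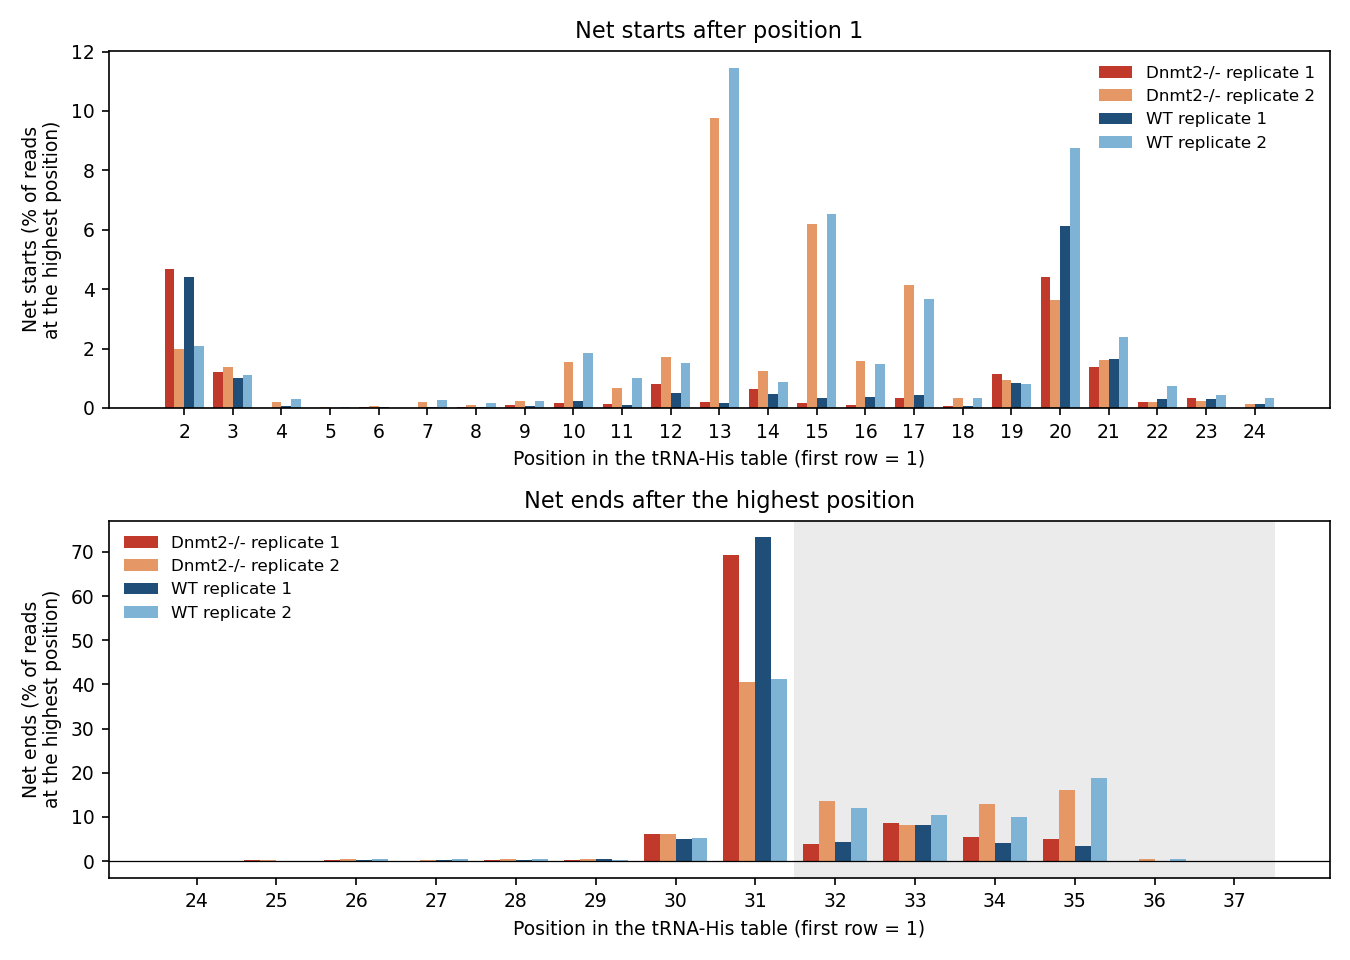
Net starts at positions 2 to 24 (top) and net ends at positions 24 to 37 (bottom) of tRNA-His, each as a percentage of the reads at the highest position of the same library, 1 bar per library, with loop positions shaded. Starts at positions 13 to 17 are high in both libraries numbered 2 (22.9% in Dnmt2-/-, 24.04% in WT), and the bars at position 31 are higher in the libraries numbered 1 (69.3% in Dnmt2-/-, 73.4% in WT).

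The 3′ side of the family was faint. Coverage dipped at position 37 in every library, to a local minimum of 22 and 55 reads in the Dnmt2-/- libraries and 43 and 25 reads in the WT libraries. From there it rose to a low plateau with its highest value between positions 49 and 51. This maximum was 49 and 91 reads in the Dnmt2-/- libraries and 87 and 111 reads in the WT libraries. Set against the peak of the 5′ fragments in the same library, it was 0.406% (0.301 to 0.537) and 0.759% (0.611 to 0.931) in the Dnmt2-/- libraries. In the WT libraries it was 0.603% (0.483 to 0.743) and 1.42% (1.17 to 1.71). The Dnmt2-/- library had the lower share in each number, while the genotypes overlapped.

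The 3′ remainder seldom ran to the end of the table. At position 57, 53.1% and 24.2% of the maximum was left in the Dnmt2-/- libraries, against 52.9% and 30.6% in the WT libraries. The last position, 71, was covered by 14 and 14 reads in the Dnmt2-/- libraries and by 15 and 10 reads in the WT libraries. The 3′ coverage at positions 39 to 71 was 0.295% and 0.489% of the family's coverage in the Dnmt2-/- libraries and 0.433% and 0.936% in the WT libraries. With at most 111 reads over a position, differences of shape on this side rest on few reads.

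**Figure D3:**
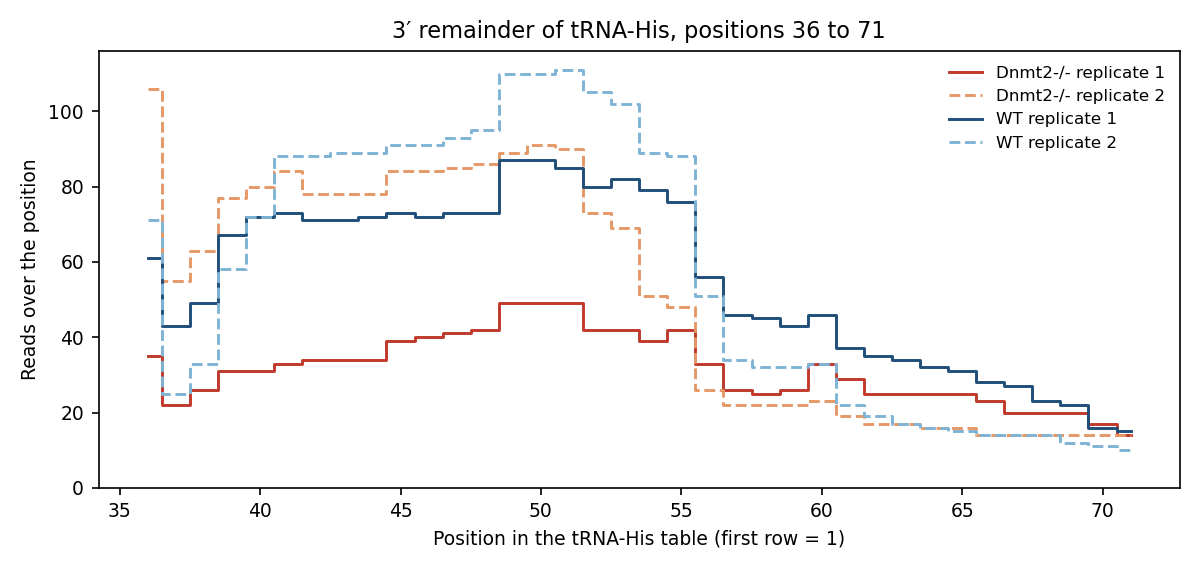
Reads over positions 36 to 71 of tRNA-His, 1 line per library. Every line dips at position 37 and has its highest point from position 39 on at positions 49 to 51, with 49 and 91 reads in the Dnmt2-/- libraries and 87 and 111 reads in the WT libraries.

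The amount of tRNA-His coverage as deposited was larger in both Dnmt2-/- libraries, without passing the test across families with genotype as the only term. The fit with the replicate number as a block, given with the alternatives below, differed in this call. Coverage summed over the 71 positions was 4.71 and 9.23 units in the Dnmt2-/- libraries, against 2.78 and 2.76 units in the WT libraries. The 2 WT libraries were nearly equal, and both Dnmt2-/- libraries lay above them. In reads, not corrected for depth, the genotypes overlapped at the peak, with 12066 and 11994 in the Dnmt2-/- libraries and 14433 and 7823 in the WT libraries. Both Dnmt2-/- libraries lay above both WT libraries in 5 of 23 families, or 21.7%. On the log2 scale with a pseudocount of 0.001 the family total was 1.25 higher in Dnmt2-/- (SE 0.73, 95% interval -0.55 to 3.06). The adjusted p was 0.973 with limma and Benjamini-Hochberg adjustment over 23 families, of which 0.0% were called, and 0 had an unadjusted p below the same threshold of 0.05. The median family was itself 0.47 higher in Dnmt2-/- on this scale, and tRNA-His stood 0.78 above that median. Rescaled to 1 median family total, the summed coverage was 9.83 and 4.78 in the Dnmt2-/- libraries and 6.36 and 2.40 in the WT libraries, so that the genotypes overlapped, with a log2 difference of 0.81. Rescaled to 1 total over all families, it was 5.70 and 6.44 in the Dnmt2-/- libraries and 4.21 and 2.56 in the WT libraries, and they did not overlap, with a log2 difference of 0.89.

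Within each replicate number, the ratio of Dnmt2-/- to WT was larger before and within the loop than on the 3′ side. In number 1, positions 1 to 31 were 1.69-fold, positions 32 to 38 2.05-fold and positions 39 to 71 1.16-fold the WT value in the Dnmt2-/- library. In number 2 the same ratios were 3.37, 3.07 and 1.74. As deposited, all 35 positions from the first row to position 35 had ratios above 1, from 1.65 to 2.35 in number 1 and from 2.73 to 3.67 in number 2. The median family had a ratio of 1.17 in number 1 and 1.62 in number 2, and 83.5% of all positions had an estimate above 0. The 35 positions share their reads and are not independent. On the 3′ side the ratios of single positions ran from 0.861 to 2.12 in number 1 and from 1.06 to 2.91 in number 2.

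**Figure D4:**
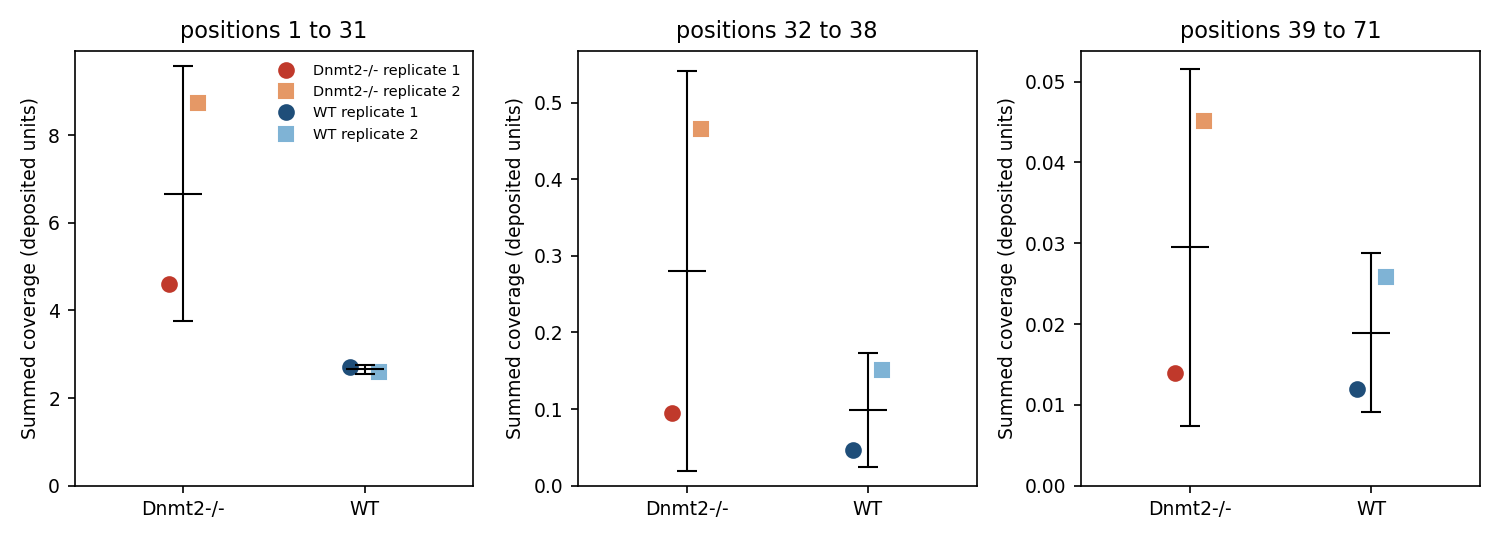
Summed coverage of tRNA-His, in deposited units, over positions 1 to 31, 32 to 38 and 39 to 71, with 1 point per library and the mean ± SD of the 2 libraries of each genotype; the 3 vertical axes differ in range. As deposited, the genotypes are apart at positions 1 to 31 (4.60 and 8.72 in Dnmt2-/-, 2.72 and 2.59 in WT) and overlap in the other windows.

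Put against the other families of the same library, the difference was smaller. tRNA-His made up 4.29% and 4.85% of the coverage of all families in the Dnmt2-/- libraries, against 3.17% and 1.93% in the WT libraries. Its share of the library was thus 1.35-fold the WT share in number 1 and 2.52-fold in number 2. By mean coverage per position it ranked 4 and 4 among the 23 families in the Dnmt2-/- libraries and 5 and 7 in the WT libraries. Its Dnmt2-/- to WT ratio of the total ranked 4 of 23 in number 1 and 1 of 23 in number 2. Divided by the ratio of the median family, it was 1.45 in number 1 and 2.06 in number 2.

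**Figure D5:**
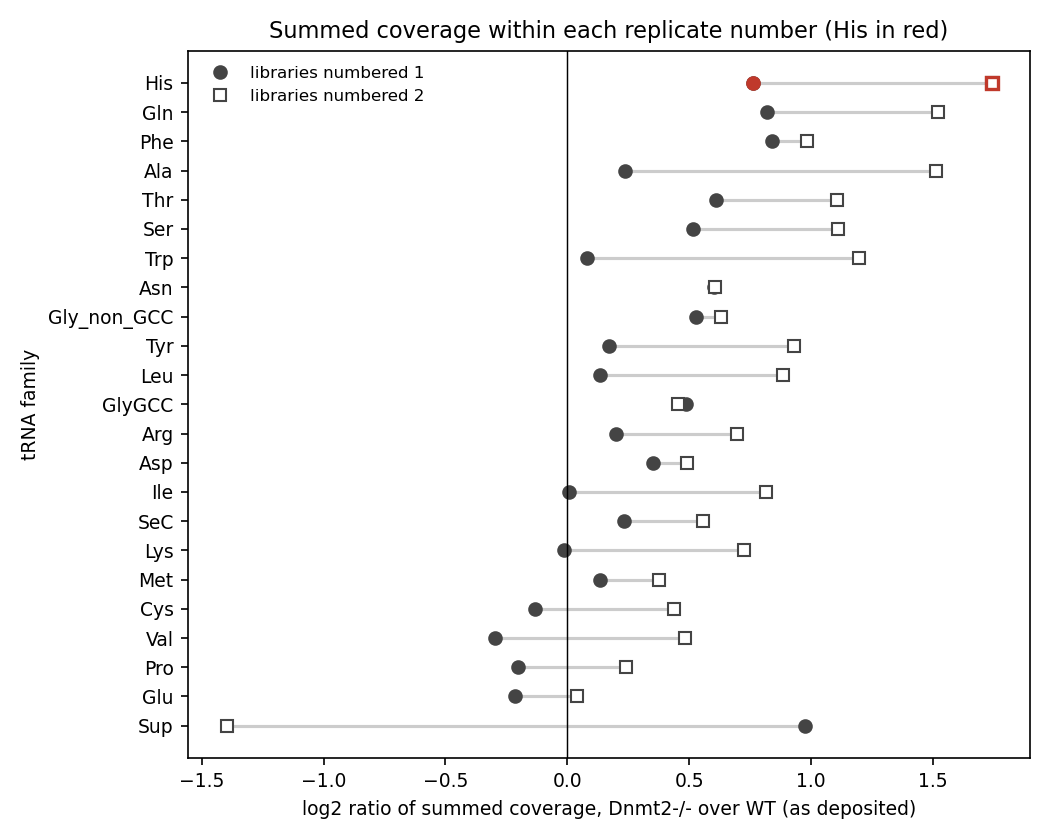
Log2 ratio of summed coverage, Dnmt2-/- over WT, for the 23 tRNA families within each replicate number, as deposited; filled circles are the libraries numbered 1, open squares those numbered 2, and tRNA-His is in red. tRNA-His lies at 0.76 in number 1 and 1.74 in number 2, and most other families also lie above 0.

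No share of the family passed the test. The log2 odds of coverage before the loop differed by 0.053 between Dnmt2-/- and WT (SE 0.74, 95% interval -1.71 to 1.82, limma adjusted p = 0.966). The log2 odds of loop coverage differed by 0.064 (SE 0.70, -1.69 to 1.82, limma adjusted p = 0.931), and both differences were small beside their SE. The log2 odds of the 3′ side had a difference of -0.77 (SE 0.69, -2.17 to 0.63, limma adjusted p = 0.892), against a median of 0.060 over all families. For this measure limma gave all 23 families the same SE, so it is not the spread of tRNA-His alone. The log2 ratio of coverage at position 32 to the highest of positions 1 to 31 differed by 0.096 (SE 0.78, -2.62 to 2.81, limma adjusted p = 1). Of 23 families, 0.0% were called in each of these 4 measures, and 1 family had an unadjusted p below 0.05 in the loop share and 1 in the ratio at position 32, neither of them tRNA-His. The intervals of the odds before the loop, of the loop odds and of the ratio at position 32 span several fold in either direction. That of the 3′ side spans several fold downward and less upward.

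Position by position, no tRNA-His estimate was called. Of the 1656 positions with coverage in any family, 0.0% had an adjusted p below 0.05 with limma, and 0 had an unadjusted p below 0.05. As deposited, all 71 tRNA-His estimates were above 0, but 64 were with libraries rescaled to 1 total and 59 with libraries rescaled to 1 median family. As deposited they ran from 0.11 to 1.44 with a median of 0.97 on the log2 scale, while 83.5% of all positions were above 0 with a median of 0.44. Both Dnmt2-/- libraries lay above both WT libraries at 42 tRNA-His positions, namely 1 to 31 and 61 to 71, against 17.1% of all positions. Rescaled to 1 total this held at 38 tRNA-His positions against 11.2% of all positions, and rescaled to 1 median family at 9 against 11.3%. Of those 9, 0 lay at positions 1 to 31 and 0 at positions 61 to 71, so that all 42 positions overlapped under this scaling. Positions of 1 family share their reads and are not independent. At position 1 the coverage was 0.133 and 0.208 units in the Dnmt2-/- libraries and 0.0781 and 0.0567 units in the WT libraries, an estimate of 1.32 (SE 0.68, limma adjusted p = 0.999). At position 34 it was 0.0173 and 0.101 units in the Dnmt2-/- libraries and 0.00744 and 0.0315 units in the WT libraries, an estimate of 1.44 (SE 1.17, limma adjusted p = 0.999). As deposited, the genotypes were apart at position 1 and overlapped at position 34.

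The shape of the tRNA-His profile followed the replicate number. The overlap of 2 coverage profiles, the sum over positions of the smaller of the 2 shares, was 99.3% between Dnmt2-/- and WT in number 1 and 97.0% in number 2. Between the 2 numbers it was 92.5% within Dnmt2-/- and 90.2% within WT. The labels do not say what the numbers stand for.

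Among the other families, the profiles most like tRNA-His were those of GlyGCC, Glu and Gly_non_GCC. Their overlap with tRNA-His in the same library averaged 92.9% ± 3.98, 91.8% ± 1.12 and 91.1% ± 4.83 (SD, n = 4 libraries). They begin at the first row as well, and for GlyGCC position 1 held 96.9% and 91.8% of its peak reads in the Dnmt2-/- libraries and 98.0% and 90.3% in the WT libraries. Counted in the rows of each family's own table, their ends differed from those of tRNA-His. GlyGCC ended most often at position 32 in 3 libraries and at position 30 in WT library 2. Its main end held 51.7% and 32.8% of peak reads in the Dnmt2-/- libraries and 47.4% and 29.2% in the WT libraries. Glu ended chiefly at positions 33 and 35, and 9.59% and 8.76% of its peak reads reached position 36 in the Dnmt2-/- libraries, against 15.7% and 16.2% in the WT libraries. On these counts, the single main end at position 31 was thus not the main end of any of these 3 families in any library. How the rows of different families line up is not stated, so an offset of 1 row and a different end cannot be told apart for GlyGCC and Gly_non_GCC.

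The other 3 queuosine families lay differently along their tRNAs. Coverage before the loop was 9.28% and 14.4% of the total for tRNA-Asp in the Dnmt2-/- libraries and 17.4% and 26.0% in the WT libraries. For tRNA-Asn it was 14.96% and 35.6% in the Dnmt2-/- libraries and 39.1% and 27.2% in the WT libraries. For tRNA-Tyr it was 50.6% and 67.3% in the Dnmt2-/- libraries and 53.0% and 61.6% in the WT libraries. The tRNA-His share was above all of them in each of the 4 libraries, by 79.1 ± 8.59 points over tRNA-Asp, 66.7 ± 11.3 points over tRNA-Asn and 37.8 ± 9.74 points over tRNA-Tyr (SD, n = 4). In an exact 2-sided sign-flip permutation test, 2 of the 16 sign patterns of the 4 libraries gave a difference as large in each of the 3 comparisons, which is the smallest p this test can give and lies above 0.05. tRNA-Asn rested on few reads, at most 104 over a position, and tRNA-Tyr on at most 387.

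Of the 4 queuosine families, 0 rose and 0 fell in their totals, with a median of 0.57 on the log2 scale, against 0.47 over all 23 families. The estimates were 0.42 for tRNA-Asp, 0.59 for tRNA-Asn and 0.55 for tRNA-Tyr, below the 1.25 of tRNA-His, and the difference between families was not tested. Of the 3 families that hold Dnmt2 substrates, tRNA-Asp, GlyGCC and Val, 0 rose and 0 fell, with a median of 0.42. In both lists 0 families were called in any of the 5 measures.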

How the data were processed

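Per the labels' protocols, total RNA was DNase-treated, its ends were repaired with T4 polynucleotide kinase, and small RNA libraries were size-selected. Per the submitters' processing notes, CASAVA 1.8.3 and Bowtie were used. Not given in the sources used here were alignment settings, genome build and the origin of the constant per library. The deposited tables hold signal, 1 column of coverage per library and strand, per the file headers. All 9329 values above 0 were whole multiples of the library's step, within 0.01 of a step.

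Forward coverage was used. The table of all glycine tRNAs, the sum of its 2 parts, was left out. Totals and shares of 23 families and 1656 positions were fitted with limma 3.58.1 (R 4.3.3) on log2 values with pseudocounts of 0.001 (totals, log2 odds of shares) and 1e-04 (positions, ratio at position 32). Fold changes on these scales understate the change of low values. Genotype was the only term, and 2-sided p-values were Benjamini-Hochberg adjusted with a threshold of 0.05. Each variance was moderated by limma toward a value shared over the families or positions of the same fit. No count model was used, because 1 read adds to the coverage of many positions. A 2 against 2 permutation cannot go below p = 0.333. Net starts and ends are differences between neighbouring positions, with no floor applied. A floor of 3 reads in every library was used only as an alternative for the positions.

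Named are tRNA-His, the queuosine and Dnmt2 substrate families, the 3 families with the most similar profile, and tRNA-His positions 1, 27, 32, 34, 36, 38 and 39, the highest positions and the steepest falls. The member and the lists were chosen with earlier results of these data known. Alternatives left out each library, added the replicate number as a block or a variance trend, and changed scaling, pseudocounts, filters and windows.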

Additional observations from a re-analysis of the deposited data

How the results depend on the processing

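For tRNA-His, the replicate block was the only one of the alternatives run that changed a call. With the replicate number as a block, the total of tRNA-His kept its estimate of 1.25 with an adjusted p of 0.0324 in limma, and 2 of 23 families were called. Apart from tRNA-His, 1 of 23 families was called in the loop share under the block, and 1 of 23 in the ratio at the first loop position with windows moved 1 row to the 5′ side. The other measures of tRNA-His stayed above the threshold under the block, with adjusted p of 0.949 (before the loop), 0.804 (loop share), 0.332 (3′ side), 0.604 (ratio at position 32) and 0.366 (lowest of its positions). Same-numbered libraries deviated together over the 23 families (r = 0.86). With 2 pairs and no label on what a number stands for, what such libraries share is not known. Without the block, the adjusted p of the total ranged from 0.529 to 0.996 over the alternatives.

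Leaving out 1 library in turn gave totals from 0.77 (without Dnmt2-/- library 2) to 1.74 (without Dnmt2-/- library 1), coverage before the loop from -0.77 to 0.88, the loop share from -0.81 to 0.94, the 3′ side from -1.30 to -0.24 and the ratio at position 32 from -0.58 to 0.77. Before the loop the sign turned to -0.59 without Dnmt2-/- library 1 and -0.77 without WT library 2. The loop share turned to -0.61 without Dnmt2-/- library 2 and -0.81 without WT library 1, and the ratio at position 32 to -0.47 and -0.58 without the same libraries. Single positions turned without Dnmt2-/- library 2, to -0.030 (35), -0.38 (36), -0.12 (38), -0.45 (39) and -0.46 (51), and position 51 to -0.20 without WT library 1. The highest values of these 5 positions, without Dnmt2-/- library 1, were 2.69 (35), 2.08 (36), 1.96 (38), 1.71 (39) and 1.35 (51). The loop share was -0.022 with a pseudocount of 0.01.

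Windows moved 1 row to the 5′ side, an alternative chosen after seeing the data, put the main end inside the loop. The loop share was then -0.022, the ratio at the first loop position -0.016, and 92.8% and 92.1% of peak reads entered the loop in the Dnmt2-/- libraries and 93.7% and 93.2% in the WT libraries. With windows moved 1 row to the 3′ side, 19.7% and 37.95% entered it in the Dnmt2-/- libraries and 16.1% and 40.1% in the WT libraries. Over all alternatives, 59 values of the main measures and 137 values of single positions kept direction and call.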

Other observations

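The reverse strand of tRNA-His was nearly empty. The highest reverse coverage was 1 and 0 reads in the Dnmt2-/- libraries and 4 and 1 reads in the WT libraries, over 13 and 0 positions in the Dnmt2-/- libraries and 42 and 14 positions in the WT libraries. The mean number of positions covered per peak read was 29.7 and 27.3 in the Dnmt2-/- libraries and 29.2 and 25.9 in the WT libraries, lower in the libraries numbered 2 of either genotype.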
